A study of Homo sapiens with 4 samples.

Results

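Keratins 8, 18, 19, 15, 7 and 10 and vimentin are intermediate filament proteins, and their genes KRT8, KRT18, KRT19, KRT15, KRT7, KRT10 and VIM were followed in CWR22Rv1 cells with a knockdown of the E3 ubiquitin ligase gene Siah2. The members were all probes annotated to these 7 genes, which gave 8 probes for 6 genes among the 47228 probes of the array. No probe carried the name KRT7 here, which does not show that the array lacks one, and KRT7 was not analysed here. CWR22Rv1 is an established human prostate carcinoma line, grown out of a xenograft that had relapsed in castrated mice. The 2 shSiah2 arrays carried total RNA from cells infected with an shRNA against Siah2, and the 2 pLKO.1 arrays RNA from cells infected with the control vector. Both kinds of cell were kept in serum with 1 ug/ml of puromycin, which selects infected cells, and the design text calls them stable transfectants. The labels mention a Siah2 shRNA without its sequence and do not say whether replicates were separate cultures, so the spread behind the p-values is that between arrays, which may be technical.

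Intermediate filaments are the tension-bearing fibres of the cytoplasm. Keratin filaments form from pairs of an acidic type I keratin and a basic type II keratin, so that a cell needs both kinds. In prostate gland epithelium, KRT8 (type II) and KRT18 (type I) are the pair of luminal secretory cells, KRT19 is a type I keratin without a tail domain, and KRT15 is a type I keratin of basal layers. Vimentin is a type III filament protein of mesenchymal cells that carcinoma cells can also make, and it is widely used as a mesenchymal marker.

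KRT19 and VIM fell in shSiah2 cells, while the luminal pair KRT8 and KRT18 did not pass the threshold. KRT19 was 8.12-fold lower, and VIM was 6.25-fold lower on one probe and 12.2-fold lower on the other. All 8 probes were tested, and limma called 3 of them at an adjusted p under 0.05, against 6.19% of the 20750 probes tested. These 3 probes stand for 2 of the 6 genes, against 7.24% of all genes called. The members were chosen with earlier results of these data known, so the shares are a description only. All 3 called probes were lower in shSiah2 cells, where the share of all probes called lower was 3.72%. No member probe rose by limma, against 2.47% of all probes called higher. At an unadjusted p under 0.05 the member counts were 0 higher and 6 lower, where 21.1% of all probes passed in either direction. Across the 6 genes, each taken as its most intense probe, the median log2 change was -0.72, against 0.011 over all 11894 genes tested. The 6 genes and the 6 lower probes both include KRT15, which passed the filter through the pLKO.1 arrays only. Its change of -0.78 was -0.30 without background correction, and the median depends on it.

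The arrays detected 42.1% to 43.7% of probes each, at a detection p under 0.05. Across tested probes, arrays of a group correlated at 0.983 (shSiah2) and 0.985 (pLKO.1), and arrays of different groups at 0.957 to 0.969. SIAH2 itself had deposited intensities of 185.2 and 196.8 in shSiah2 cells and 334.5 and 490.5 in pLKO.1 cells, and it fell by 1.85 on the log2 scale (SE 0.251, limma adjusted p = 0.00117), or by 1.09 without background correction. Intensities below are the deposited linear signals, and log2 levels and changes are after background correction and quantile normalization. Levels of different probes are not set against each other, since probes differ in brightness for the same amount of RNA.

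KRT8, the type II luminal keratin, was bright in both kinds of cell. Its intensity was 3036.7 and 2901.5 in shSiah2 cells and 2555.1 and 2799.8 in pLKO.1 cells (probe ILMN_1753584). The shSiah2 arrays both lay above the pLKO.1 arrays, by a nearest gap of 0.086 on the log2 scale, which is smaller than the gap between arrays of a group, 0.216 in shSiah2 and 0.299 in pLKO.1 cells. The log2 level averaged 11.60 ± 0.153 in shSiah2 cells and 11.25 ± 0.211 in pLKO.1 cells (SD, n = 2 each). The change was 0.34 (SE 0.249, limma adjusted p = 0.479), and its 95% interval ran from -0.20 to 0.89. It was 0.19 without pLKO.1 replicate 2.

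KRT18, the type I partner of KRT8, was read by 2 probes that gave different sizes of change. On the brighter probe, ILMN_1803408, intensities were 764.9 and 544.5 in shSiah2 cells and 676.7 and 752.0 in pLKO.1 cells. These groups overlapped, and the log2 change was -0.092 (SE 0.257, 95% interval -0.65 to 0.47, limma adjusted p = 0.884). On the dimmer probe, ILMN_1730848, whose annotation names another KRT18 transcript, intensities were 297.9 and 226.7 in shSiah2 cells and 320.0 and 389.1 in pLKO.1 cells. Both shSiah2 arrays were the lower ones there, with a change of -0.70 (SE 0.263, 95% interval -1.27 to -0.12, limma adjusted p = 0.153), which did not pass. It was -0.42 without shSiah2 replicate 2 and -0.44 without background correction. The 2 probes' changes differed by 0.60, more than the gaps between arrays of a group in the same difference (0.201 in shSiah2 and 0.255 in pLKO.1 cells). The RefSeq gene table lists 52 pseudogenes of KRT8, 68 of KRT18 and 5 of KRT19, none of them among the probes named here. Signal from near-identical copies cannot be told apart from that of these 3 genes.

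KRT19 was the keratin with the largest change of those measured. Its intensity was 464.5 and 360.8 in shSiah2 cells and 2422.0 and 3110.5 in pLKO.1 cells (probe ILMN_1730777, detected on all 4 arrays). Both shSiah2 arrays lay far below both pLKO.1 arrays, with a nearest gap of 2.83 on the log2 scale, against gaps of 0.293 between the shSiah2 arrays and 0.0883 between the pLKO.1 arrays. The log2 level averaged 8.27 ± 0.208 in shSiah2 cells and 11.29 ± 0.0624 in pLKO.1 cells (SD, n = 2 each). It fell by 3.02 on the log2 scale (SE 0.245, 95% interval -3.56 to -2.49, limma adjusted p = 3.21e-05), the value at place 23 from the lowest among the 11894 genes. Bulk RNA cannot tell fewer cells that make a transcript from less of it per cell.

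**Figure D1:**
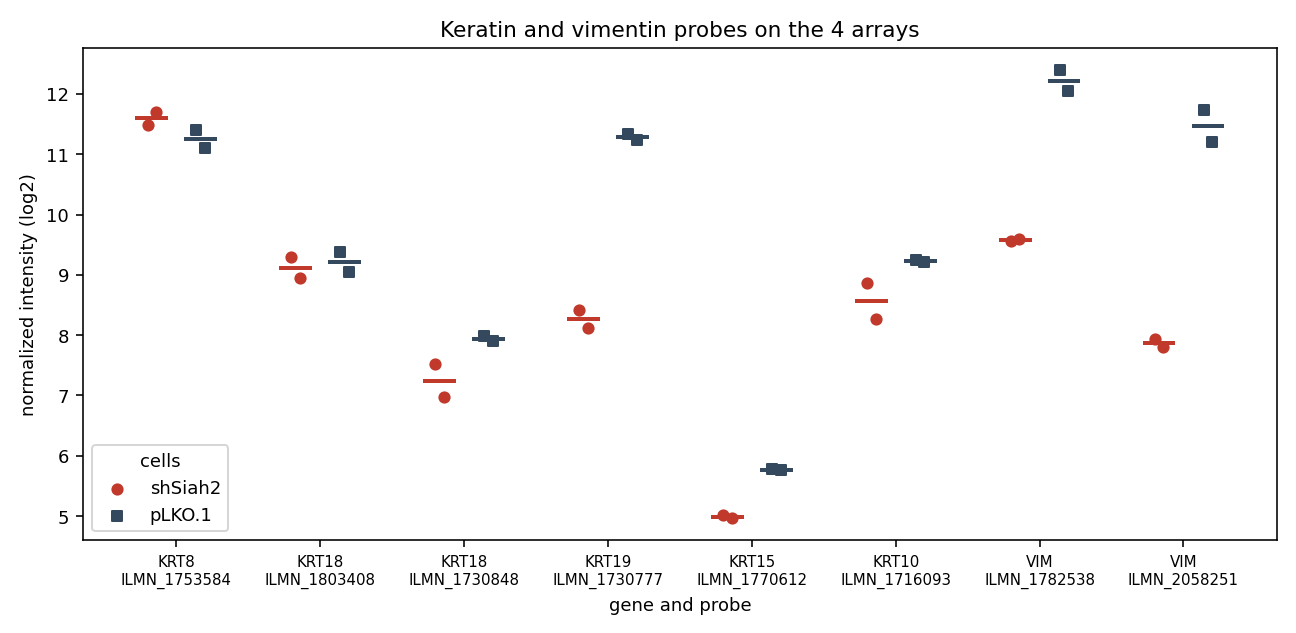
Normalized intensity (log2) of each of the 8 probes on the 4 arrays, with shSiah2 arrays as circles to the left of pLKO.1 arrays as squares; bars mark the mean of 2 arrays. The KRT19 probe and both VIM probes show wide gaps between the groups, with shSiah2 arrays lower, while the groups of the brighter KRT18 probe overlap.

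The difference between KRT19 and the luminal pair was measured within each array. The change of KRT19 minus that of KRT8 was -3.36, and minus that of KRT18 on its brighter probe -2.93. In both differences the shSiah2 and pLKO.1 arrays lay apart, by at least 2.77 on the log2 scale, whereas arrays of a group differed by at most 0.510. Of 5 such pairs of probes compared, each gave an exact two-sided permutation p of 0.333, adjusted p = 0.333, which is the smallest that 2 arrays against 2 can give. These pairs were not among the planned comparisons. They set KRT19 and VIM, which were called, against KRT8 or KRT18, which did not pass, or 2 probes of a gene against each other. The separation is therefore a description only. The limma intervals of the changes, -3.56 to -2.49 for KRT19 and -0.20 to 0.89 for KRT8, did not overlap.

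KRT15, the basal-layer keratin and the gene next to KRT19 on chromosome 17, was dim. Its intensity was 135.7 and 134.6 in shSiah2 cells and 150.0 and 161.6 in pLKO.1 cells (probe ILMN_1770612). It was detected on neither shSiah2 array (detection p 0.231 and 0.283) and on both pLKO.1 arrays (0.0247 and 0.0117). The shSiah2 arrays were the lower ones, with log2 levels of 4.99 ± 0.0335 in shSiah2 cells and 5.77 ± 0.0142 in pLKO.1 cells (SD, n = 2 each). Because the shSiah2 signal is not above background, the difference is given as a bound, at least 1.23-fold lower in shSiah2 cells, set by the lowest signal among detected probes. The bound is on the measured means and leaves out the spread between arrays. The measured change of -0.78 (SE 0.237) did not pass (limma adjusted p = 0.0805), and it was -0.30 without background correction. An offset of 50 gave -0.43, and the authors' value table gave -0.45.

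KRT10, a type I keratin of the upper epidermis, had intensities of 594.2 and 389.8 in shSiah2 cells and 626.4 and 829.6 in pLKO.1 cells (probe ILMN_1716093). The shSiah2 arrays were lower, but they differed from each other by 0.586 on the log2 scale, more than the nearest gap of 0.353 between the groups. The change was -0.66 (SE 0.266, 95% interval -1.24 to -0.082, limma adjusted p = 0.178) and did not pass, and it was -0.37 without shSiah2 replicate 2. The antisense gene KRT10-AS1, looked at after its values were seen, fell by 1.05 on one probe (SE 0.238, limma adjusted p = 0.0242) and lay at 0.32 on another (adjusted p = 0.560).

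VIM fell on both of its probes. On the brighter one, ILMN_1782538, intensities were 892.2 and 778.9 in shSiah2 cells and 5003.8 and 5368.1 in pLKO.1 cells. On the other, ILMN_2058251, they were 363.7 and 312.8 in shSiah2 cells and 3171.0 and 3031.2 in pLKO.1 cells. Every shSiah2 value lay far below every pLKO.1 value, and both probes were detected on all 4 arrays.

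On the brighter probe the log2 level averaged 9.57 ± 0.0221 in shSiah2 cells and 12.22 ± 0.241 in pLKO.1 cells (SD, n = 2 each). The change was -2.64 (SE 0.247, 95% interval -3.18 to -2.10, limma adjusted p = 7.70e-05). On the other probe it was -3.61 (SE 0.263, 95% interval -4.18 to -3.03, limma adjusted p = 1.69e-05). The second probe's change was larger in size by 0.96, while this difference between the probes varied by 0.168 between shSiah2 arrays and by 0.193 between pLKO.1 arrays. Both probes are annotated to the same RefSeq transcript, so the sign is shared and the size depends on the probe. As with KRT19, the VIM change differed from that of KRT8, by -2.99, with the groups apart in all arrays, which is likewise a description only.

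**Figure D2:**
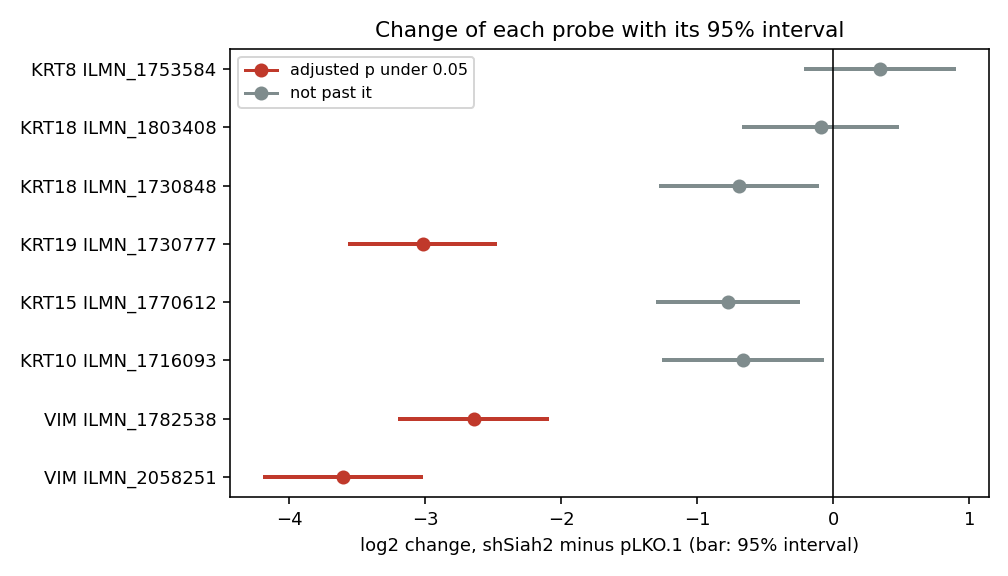
Log2 change (shSiah2 minus pLKO.1) of each probe, as a point with its 95% interval from limma; red marks an adjusted p under 0.05. The KRT19 probe at -3.02 and the VIM probes at -2.64 and -3.61 lie apart from the other 5 probes, which lie between -0.78 and 0.34.

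Counting only whether arrays of the groups overlap, 6 of the 8 probes had both shSiah2 arrays lower, the KRT15 probe near background among them. Only 1, KRT8, had both higher. Over all tested probes the shares were 24.1% lower and 26.2% higher, 50.3% together. The other settings of the processing are shown gene by gene, and KRT19 and VIM passed under all of them. KRT18 was the member whose sign turned, to 0.079 with pLKO.1 replicate 1 left out and to 0.083 with shSiah2 replicate 2 left out.

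**Figure D3:**
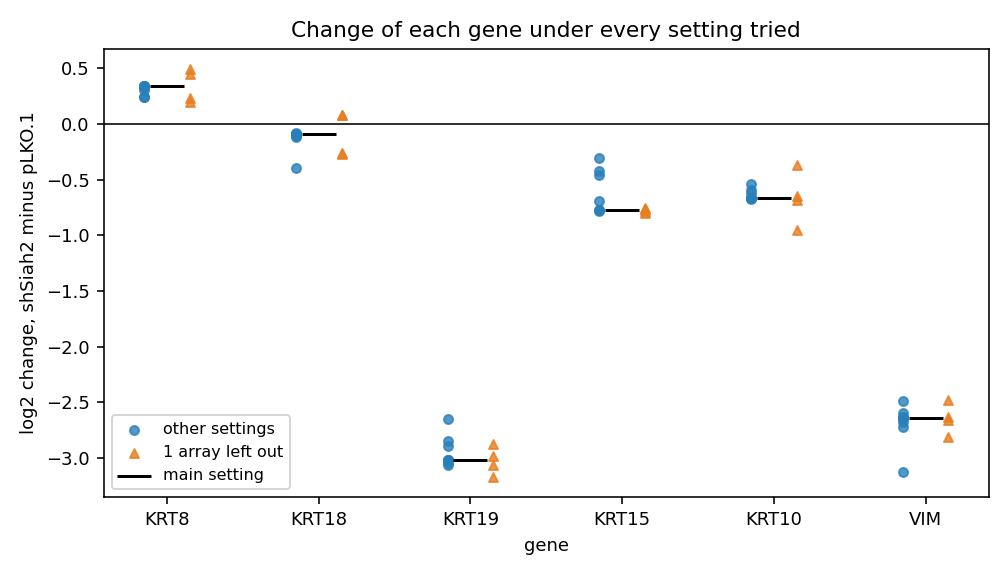
Log2 change (shSiah2 minus pLKO.1) of each gene's most intense probe, with black bars for the main setting, circles for other settings (for KRT18 and VIM also both probes averaged) and triangles for 1 array left out. KRT19 stays between -3.17 and -2.65 and VIM between -2.81 and -2.47, apart from a circle at -3.13 that is the mean of both VIM probes, whereas KRT18 crosses 0.

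Upstream regions of members are shown because each lies before an annotated transcription start of its gene. RefSeq (GRCh38.p14) promoter entries matched 3 of the 7 genes, VIM among those that fell and KRT8 and KRT10 among those that did not pass. Each line gives the 250 bases before the annotated start, 5′ to 3′ on the gene's strand. They span chr10:17227991-17228240 (plus strand) for VIM, chr12:52926470-52926719 (minus strand) for KRT8 and chr17:40822615-40822864 (minus strand) for KRT10. Capitals mark matches, on either strand, to the GC box GGGCGG, the AP-1 site TGACTCA, the TATA box TATAAA or the steroid receptor half-site TGTTCT.
VIM: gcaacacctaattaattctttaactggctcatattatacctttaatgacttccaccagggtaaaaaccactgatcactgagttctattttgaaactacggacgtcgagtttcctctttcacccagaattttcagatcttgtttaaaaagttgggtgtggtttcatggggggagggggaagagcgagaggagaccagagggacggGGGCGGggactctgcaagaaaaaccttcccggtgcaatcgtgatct
KRT8: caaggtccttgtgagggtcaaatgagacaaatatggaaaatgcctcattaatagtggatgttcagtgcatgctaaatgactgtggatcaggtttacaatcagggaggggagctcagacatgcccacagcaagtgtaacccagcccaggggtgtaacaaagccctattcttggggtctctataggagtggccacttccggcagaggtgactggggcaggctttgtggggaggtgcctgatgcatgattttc
KRT10: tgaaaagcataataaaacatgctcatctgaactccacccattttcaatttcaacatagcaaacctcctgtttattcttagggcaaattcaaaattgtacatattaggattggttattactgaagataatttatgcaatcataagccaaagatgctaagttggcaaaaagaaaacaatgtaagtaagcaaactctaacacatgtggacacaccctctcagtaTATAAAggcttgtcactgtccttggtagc
The VIM window holds 1 GC box, which begins 46 bases before the start, and 42.6% of the 35116 promoter windows of the same length hold one. The KRT10 window holds 1 TATA box, 29 bases before the start, a motif present in 10.7% of windows. None of the 4 motifs is in the KRT8 window, whose start lies inside the annotated span of the gene. Which start the cells used was not measured. The AP-1 site, in 4.20% of windows, and the steroid receptor half-site, in 12.4%, match in none of the 3 windows. A match describes letters and is not a measured binding site.

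The genes that lie beside the members were read for their order only, a step added after the values were seen. KRT8 and KRT18 are neighbours on chromosome 12. EIF4B, next to KRT18, lay at -0.0033 on the log2 scale (limma adjusted p = 0.996). KRT19 has KRT15 and KRT9 on its sides, and of the 4 protein-coding genes on each side only KRT15 was tested. Around VIM on chromosome 10, RSU1 lay at -0.45, STAM at 0.10 and TMEM236 at -0.22, and none passed (limma adjusted p = 0.335, 0.874 and 0.685).

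The other keratins with a probe named here were few and dim. Of 49 further keratin genes, 7 had such a probe and 3 were tested. Limma called 0 of these 3, a count near the share of all genes called, 7.24%. At an unadjusted p under 0.05 there were 0, where 21.1% of all probes passed in either direction. KRT83, a hair keratin, lay at -0.48 (SE 0.252), KRT24 at -0.29 (SE 0.261) and KRT3, a type II keratin of the cornea, at 0.25 (SE 0.251). Their summed intensity was 477.7 to 492.1 in shSiah2 cells and 460.4 to 504.8 in pLKO.1 cells. The basal pair KRT5 and KRT14 was not analysed here.

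No other intermediate filament gene tested passed the threshold in the main setting. Of 14, 8 were tested, and limma called 0, a count near the share of all genes called, 7.24%. At an unadjusted p under 0.05 there were 0 higher and 2 lower, where 21.1% of all probes passed in either direction. Their median log2 change was -0.071. NES, which encodes nestin, a filament protein of progenitor cells, lay at -0.84 (SE 0.249, limma adjusted p = 0.0717) and did not pass. It was detected on no shSiah2 array (at least 1.44-fold lower, by the same bound as for KRT15). NES passed the filter through the pLKO.1 arrays only, and it is among the 2 lower genes. The authors' value table gave it a change of -0.46. PRPH, the neuronal type III filament gene, lay at -0.70 (SE 0.258, adjusted p = 0.144). The lamins of the nuclear envelope, LMNA at 0.29, LMNB1 at 0.053 and LMNB2 at -0.33, did not pass either. In 2 of the other settings, the authors' value table and the replicate block, 1 gene of this list fell.

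Linker and desmosome genes, whose proteins tie filaments to junctions and to each other, held 1 call. Of 15 tested, SFN fell and 14 did not pass, a count near the share of all genes called, 7.24%. At an unadjusted p under 0.05 there were 2 higher and 1 lower, where 21.1% of all probes passed in either direction. The median was 0.20. SFN encodes 14-3-3 sigma, which binds keratins and is a checkpoint protein. Its intensity was 1745.9 and 1161.8 in shSiah2 cells and 3041.6 and 3865.2 in pLKO.1 cells. It fell by 1.17 (SE 0.249, limma adjusted p = 0.0177), and the call was lost when pLKO.1 replicate 1 (-1.12), pLKO.1 replicate 2 (-1.23) or shSiah2 replicate 2 (-0.99) was left out. PNN, which encodes pinin, at 0.71 and the desmosomal cadherin gene DSG2 at 0.54 did not pass. DSP, which encodes the keratin anchor desmoplakin, lay at 0.37 and PLEC, which encodes the cross-linker plectin, at 0.12.

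Among luminal and epithelial markers other than keratins, more fell than rose. Of 16 tested, 5 fell, 1 rose and 10 did not pass, against 4.51% of genes called lower and 2.72% called higher among all tested, and the median was -0.036. At an unadjusted p under 0.05 there were 1 higher and 7 lower, where 21.1% of all probes passed in either direction. CD24, a surface glycoprotein gene, had intensities of 348.6 and 304.8 in shSiah2 cells and 1162.1 and 1671.4 in pLKO.1 cells and fell by 2.50 (SE 0.238, limma adjusted p = 8.85e-05). The surface peptidase gene DPP4 had 182.5 and 193.6 in shSiah2 cells and 416.6 and 470.7 in pLKO.1 cells and fell by 2.09 (SE 0.251, adjusted p = 0.000452). Both genes had shSiah2 arrays below all pLKO.1 arrays, and DPP4 lay at -1.26 without background correction. ACP3, the prostatic acid phosphatase gene, HOXB13 and TMPRSS2 were the other 3 that fell. ACP3 was detected on neither shSiah2 array (at least 2.28-fold lower, by the same bound as for KRT15). It passed the filter through the pLKO.1 arrays only, and 4 genes of this list fell when detection on all 4 arrays was required. The epithelial transcription factor gene ELF3 was the one that rose. The TMPRSS2 call was lost with pLKO.1 replicate 1 left out (-1.05) and likewise shSiah2 replicate 2 (-1.02), and the ELF3 call with no filter on dim probes (1.45).

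The adhesion genes CDH1 and EPCAM did not pass. CDH1, the E-cadherin gene, had 5308.7 and 4174.5 in shSiah2 cells and 3782.3 and 6163.9 in pLKO.1 cells, with a change of 0.16 (limma adjusted p = 0.774). EPCAM on its brightest probe had 6533.5 and 4597.1 in shSiah2 cells and 4623.2 and 6081.0 in pLKO.1 cells, with a change of 0.27 (adjusted p = 0.586). The trafficking gene RAB25 lay at -0.89 and the claudin gene CLDN4 at -0.77, and neither passed.

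Mesenchymal and stromal genes did not share the direction of VIM as a list. Of 9 tested out of 23, 2 rose, 1 fell and 6 did not pass, against 2.72% of all genes called higher and 4.51% called lower. At an unadjusted p under 0.05 there were 4 higher and 1 lower, where 21.1% of all probes passed in either direction. The median was 0.46, against 0.011 over all genes. That median is the value of TAGLN on its brightest probe, which did not pass (limma adjusted p = 0.411). A dimmer TAGLN probe, detected on the shSiah2 arrays only, was called higher (1.29, adjusted p = 0.0157), and another was not tested. LUM, the collagen-binding proteoglycan lumican, had 2649.4 and 2698.7 in shSiah2 cells and 1022.2 and 1537.7 in pLKO.1 cells and rose by 1.32 (SE 0.247, limma adjusted p = 0.00914). ACTA2, the smooth muscle actin gene, had 897.4 and 637.0 in shSiah2 cells and 364.9 and 491.7 in pLKO.1 cells and rose by 1.10 (SE 0.247, adjusted p = 0.0230). For both genes the shSiah2 arrays lay above all pLKO.1 arrays. The LUM call was lost without pLKO.1 replicate 1 (1.25). The ACTA2 call was lost without pLKO.1 replicate 1 (1.07), pLKO.1 replicate 2 (1.14) or shSiah2 replicate 1 (0.94) and with no filter on dim probes (1.10).

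DCN, another small proteoglycan gene, fell by 1.98 on its brighter probe (SE 0.241, limma adjusted p = 0.000501) but lay at 0.67 on a dimmer one (adjusted p = 0.155). Without background correction the brighter probe lay at -1.14. The N-cadherin gene CDH2 at 0.87 (adjusted p = 0.0562) and the transcription factor gene TWIST1 at 0.66 (adjusted p = 0.160) did not pass. The tested genes of this list had a summed deposited intensity, not normalized here, of 5365.4 to 5764.2 in shSiah2 cells and 3084.3 to 4184.7 in pLKO.1 cells. LUM alone gave 2649.4 and 2698.7 of it in shSiah2 cells and 1022.2 and 1537.7 in pLKO.1 cells, so the sum mostly follows bright probes. The part of other cells in the VIM change was not tested.

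Markers of basal, blood and vessel cells were scarce among the probes named here. Of 14 basal genes 2 were tested, CAV1 at -0.77 (limma adjusted p = 0.0824) and LAMB3, a laminin chain gene, at 0.46 (adjusted p = 0.310). Of these 2, 0 were called, against 7.24% of all genes. At an unadjusted p under 0.05 there were 0 higher and 1 lower, where 21.1% of all probes passed in either direction. Their summed intensity was 438.1 to 479.3 in shSiah2 cells and 470.2 to 561.9 in pLKO.1 cells. Of 12 leukocyte and endothelial genes, 3 had a probe named here and CD68, a lysosomal protein gene, was the one tested, at 0.18 (adjusted p = 0.796). CD74 and TEK were detected on 1 array each.

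**Figure D4:**
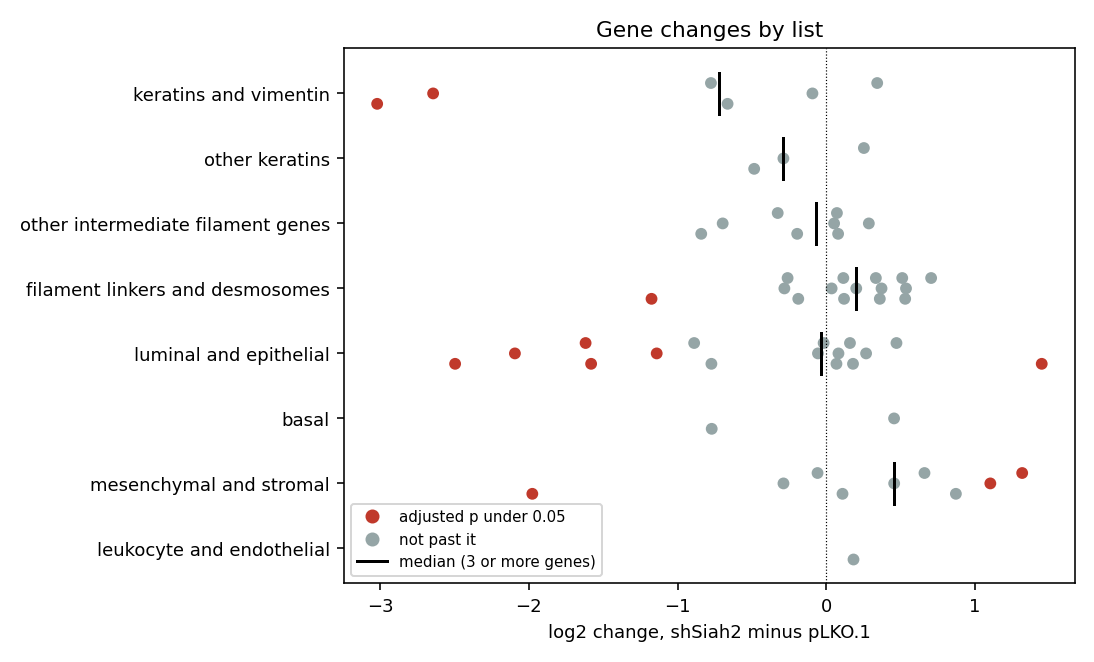
Log2 change (shSiah2 minus pLKO.1) of each tested gene, by list, with the 6 keratin and vimentin genes in the top row; red marks an adjusted p under 0.05 and black lines the median of lists with 3 or more genes. KRT19 and VIM lie at the far left, and mesenchymal genes have a median of 0.46.

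The genes with the profile most like that of a called member were named by the smallest Euclidean distance between log2 values centred on their own mean, over the 4 arrays. For KRT19 these were MMP16, a membrane-bound metalloproteinase gene, at a distance of 0.129, the synaptic vesicle gene SYP at 0.134 and the lipid phosphatase gene PLPP1 at 0.231. Their log2 changes were -3.07, -3.05 and -2.87. For VIM on its brighter probe they were CDH17, which encodes the intestinal LI-cadherin, at 0.142, the neuronal splicing factor gene CELF3 at 0.177 and the alpha-globin gene HBA1 at 0.219. Their changes were -2.60, -2.47 and -2.58, and the HBA1 probe cannot be assigned with certainty among the alpha-globin copies. On the shSiah2 arrays the log2 levels were 4.81 and 4.59 for SYP, 4.86 and 4.93 for CELF3 and 4.79 and 5.11 for HBA1. These lie near the 5.01 and 4.97 of KRT15, which was not detected there. Background may therefore set the size of the SYP, CELF3 and HBA1 changes. A distance over 4 arrays in 2 groups rests mainly on the size of the group difference.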

How the data were processed

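RNA of 4 cell samples was measured on Illumina bead arrays. The authors deposited a table of linear probe intensity whose header names no normalization and, per the file headers, a detection p-value for each probe and array. They also deposited a value table on a log2 scale of 24733 probes, those that 1 or more arrays detected (p under 0.05), used as an alternative. Its slope against the log2 intensity of bright probes was 1.01 to 1.02, its column medians were 7.59 and 7.62 (shSiah2) and 7.60 and 7.61 (pLKO.1), and its scaling between arrays stays unknown. Which software made either table is not given in the sources used here.

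Here the intensities were processed as neqc does, with limma 3.58.1 in R 4.3.3: normexp background correction from the detection p-values, offset 16, quantile normalization and log2. The 20750 probes that 2 or more arrays detected were tested. The comparison used lmFit and eBayes (two-sided) and Benjamini-Hochberg adjustment over all tested probes at 0.05. "Rose" and "fell" mean past that threshold. The fit was tested on simulated data. Names came from the platform annotation, updated through Entrez IDs to RefSeq symbols: 18007 probes had 1 symbol, 4 had several and 29217 were unnamed here. Each named probe of the members and lists was detected on 1 or more arrays. A gene without a named probe here may therefore still have one on the array. In lists a gene stands as its tested probe with the highest mean.

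Members and lists were chosen with earlier results of these data known. The genes named are all members, SIAH2, tested keratins, list members past the threshold plus up to 2 more with the largest change, and the 3 nearest profiles of each called member. DSP, PLEC, the lamins, CDH1, EPCAM, TAGLN, CD74, TEK, KRT10-AS1 and the neighbouring genes were added after their values were seen. Alternatives changed the background correction, the normalization, the source of values, the filter, the replicate block and the arrays used.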

Additional observations from a re-analysis of the deposited data

How the results depend on the processing

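The calls of KRT19 and VIM and the count of 3 called member probes, all lower, held under all alternatives run, with changes of -3.17 to -2.65 for KRT19, -2.81 to -2.47 for VIM on its brighter probe, -3.87 to -3.12 on the other and -3.13 for the mean of both. No alternative brought KRT8, KRT18, KRT15 or KRT10 past the threshold. KRT18 ranged from -0.27 to 0.083 over the fits without 1 array, and was -0.39 as the mean of its probes, while KRT8 ranged from 0.19 to 0.49. KRT15 could not be tested when detection on all 4 arrays was required. The count of 1284 called probes (512 higher, 772 lower) was 640 with no filter on dim probes (216 higher, 424 lower). Over the fits without 1 array it ranged from 520 (without pLKO.1 replicate 1) to 1329 (800 when shSiah2 replicate 2 was left out), with 177 to 520 higher and 343 to 809 lower (500 lower when pLKO.1 replicate 2 was left out). Deviations of arrays with the same replicate number correlated at 0.0891, so the numbers were not taken as pairs. With the replicate block the member counts and calls were those above, KRT19 lay at -3.02 and VIM at -2.64, and the count over all probes was 1815. Among companion lists, 1 basal gene fell when detection on all 4 arrays was required, and 1 linker gene rose without background correction. SIAH2 passed under all alternatives, at -2.00 to -1.09. The number of arrays, and signal near background for KRT15, limit the precision.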
